A study of Mus musculus with 4 samples.

Results

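The genes described here encode the machinery that sorts membrane proteins in endosomes: the ESCRT complexes, retromer, the sorting nexins, the HOPS, CORVET and GARP tethering complexes, and the exosome adaptors ALIX and syntenin. They were taken by name from the deposited count tables, as every gene name made of Chmp, Vps or Snx followed by a number and up to a letter and a digit, together with Tsg101, Hgs, Stam, Stam2, Pdcd6ip and Sdcbp. This gave 79 of the 31017 gene names, and 77 of them had enough reads to be tested. Snx31 had no count in any library and Snx22 had at most 9. The data are 4 bulk RNA-seq libraries of beta cells, the insulin-producing cells of the islets of Langerhans, from wild-type C57BL/6J male mice of 10 weeks. Islets were cultured overnight and dissociated, and cells were sorted on CD63 into CD63 high (2 libraries) and CD63 low (2 libraries). The labels name no gate other than CD63, and give no mouse or sort for each replicate, so p-values measure only the spread between these libraries.

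Ubiquitin-tagged receptors that reach the endosome are gathered by ESCRT-0 and passed to ESCRT-I and ESCRT-II, and ESCRT-III filaments then bud them into internal vesicles, with the VPS4 ATPases taking the filaments apart. Such an endosome either fuses with the lysosome, for which it is tethered by HOPS, or with the plasma membrane, where its internal vesicles leave the cell as exosomes. CD63 is a membrane protein of those internal vesicles. Retromer and the sorting nexins pull other proteins back towards the Golgi or the cell surface, and in beta cells the same routes retrieve components of the insulin granule.

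Libraries held 29249270 to 35003307 counts, so that 3 counts in a library stood for 0.0857 to 0.103 CPM, the unit of counts relative to the library total used below, and insulin transcripts took 48.7% to 56.4% of all counts. These CPM values are scaled by the TMM method of edgeR, which corrects for library composition. The exceptions are the sums over marker lists and the values of 3 counts given above, which use total counts alone. Cd63 itself had 1973 and 2076 CPM with high CD63 and 1186 and 1120 CPM with low CD63 (log2 fold change 0.81, SE 0.19; edgeR adjusted p 0.0484), the direction of the sort. Its call ended with library size as the only scaling (adjusted p 0.113), with library size without insulin genes (0.0721), with a robust fit (0.0523) and with the replicate block (0.218). It also ended without either CD63 high library (0.0531 and 0.179) and without CD63 low replicate 2 (0.085). The CD63 high libraries also carried more transcripts of other cell types. Of 14 macrophage markers, 13 were called higher, and the list summed to 179 and 584 CPM with high CD63, against 25.8 and 46.0 CPM with low CD63. The alpha cell list, led by Gcg, summed to 5560 and 5770 with high CD63 against 423 and 565 CPM with low CD63, with 2 of 7 tested genes called. All 3 tested delta and all 3 gamma cell markers were called higher, at sums of 465 and 842 with high CD63 against 67.6 and 48.7 CPM with low CD63, and of 2400 and 3890 with high CD63 against 515 and 310 CPM with low CD63. Acinar markers (4 of 13 called: Clps, Cpa1, Reg1 and Try5) summed to 1090 and 1620 with high CD63 against 27.7 and 453 CPM with low CD63, and duct markers (1 of 7 called, led by Spp1) to 3120 and 1660 with high CD63 against 914 and 1090 CPM with low CD63. Endothelial and mesenchymal lists were at or under 7.39 CPM in every library, with Cdh5, Tie1 and Pdgfra at 0 throughout and no tested gene called. Beta cell markers, of which 3 of 10 were called lower, made up 551000 and 587000 with high CD63 against 622000 and 538000 CPM with low CD63.

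No endosomal sorting gene passed the test. Of the 77 tested, 0 reached an adjusted p under 0.05 (Benjamini-Hochberg) by edgeR's quasi-likelihood test, beside 2.79% of all 13241 tested genes (2.5% called higher and 0.287% lower). The smallest adjusted p was 0.116. At an unadjusted p under 0.05 there were 6 (7.79%), against 14.9% of all tested genes. Among the 8779 tested genes of similar expression (3.87 to 129 CPM), edgeR called 2.13%, and 13.4% had an unadjusted p under 0.05. DESeq2 called 1 of the 77 (Vps8, lower in CD63 high) and limma-voom none, with 7 at an unadjusted p under 0.05 by each. In bulk samples such as these, fewer cells of a type and less RNA per cell cannot be told apart.

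The range of these genes was narrow. Log2 fold changes (CD63 high over CD63 low) ran from -0.82 to 0.81, and 7 genes (9.09%) were past 1.5-fold in either direction, against 24.8% of all tested genes. For 59 of the 77 (76.6%) the 95% interval of the log2 fold change lay between -1 and 1, so that changes beyond 2-fold lay outside the interval. The same held for 49.3% of all tested genes, whose expression was lower, with a median of 11.1 CPM against 23.4 CPM for the endosomal sorting genes. The 18 others included genes with few reads, such as Snx33, Snx20, Snx29 and Vps25, whose standard errors reached 0.77 against a median of 0.23.

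More of these genes lay below 0 than above. The log2 fold change was negative for 52 (67.5%) and positive for 25, where 51.4% of all tested genes were negative. The median was -0.15, against -0.01 over all tested genes. In 25 genes (32.5%) both CD63 high libraries lay below both CD63 low libraries, against 22.2% of all tested genes, and in 12 (15.6%) both lay above, against 23.8%. Among the 8779 tested genes of similar expression (3.87 to 129 CPM) the median was -0.06, and the shares were 25.6% below and 19.7% above. Without CD63 low replicate 2 the median of the endosomal sorting genes was -0.06, against 0.04 over all genes tested in that fit. That library held the highest value of 34 of the 77 genes (44.2%), and of 29.2% of all tested genes. Together the 79 genes took up 0.301% and 0.295% of the counted reads in the CD63 high and 0.283% and 0.357% in the CD63 low ones.

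**Figure D1:**
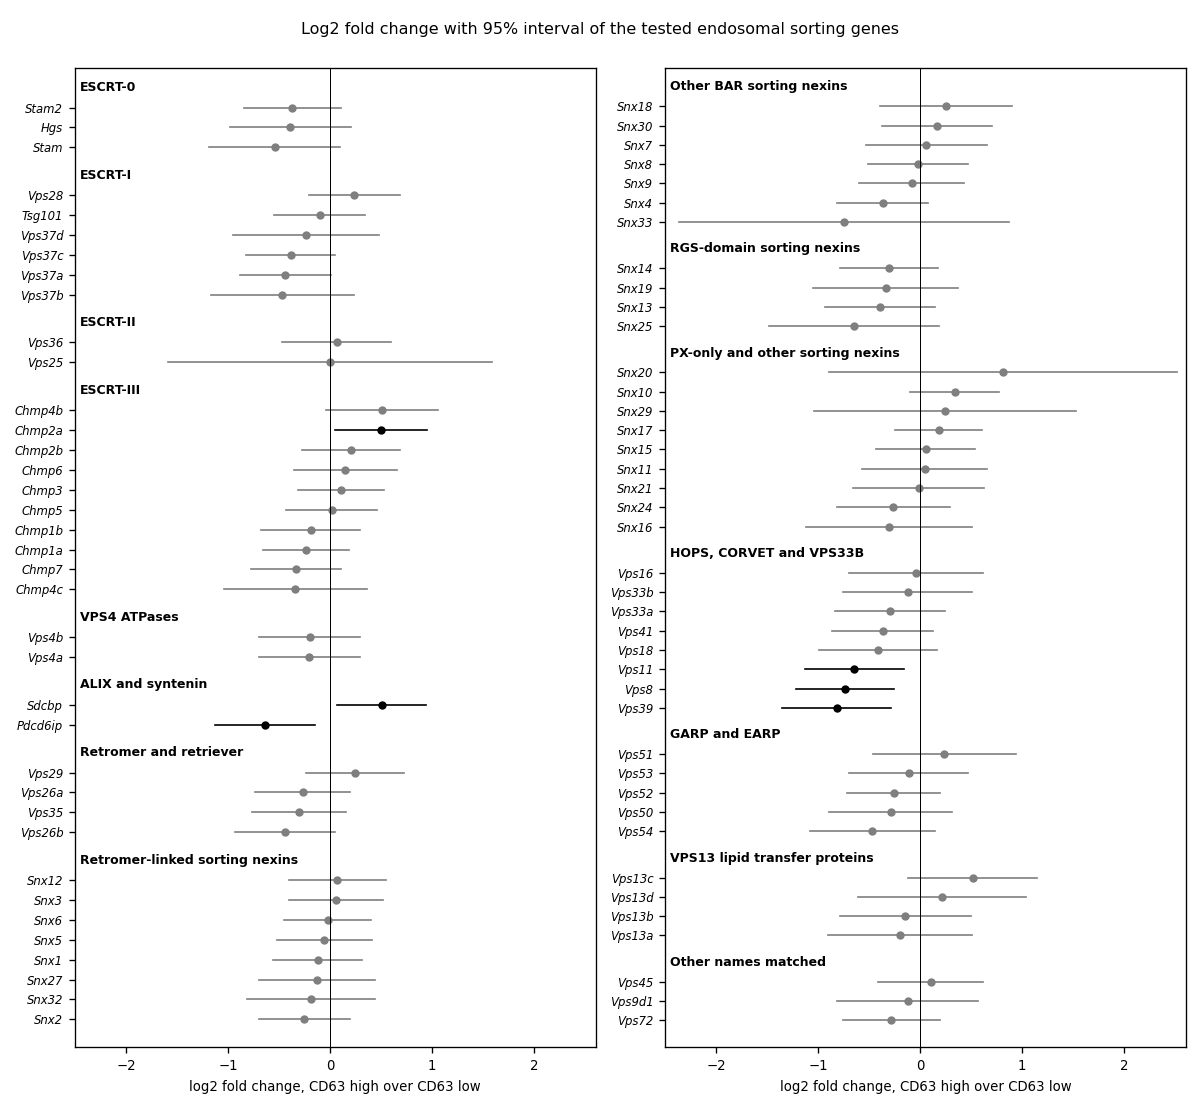
Log2 fold change of each of the 77 tested genes, CD63 high over CD63 low, by role; points are edgeR estimates from 2 libraries per group and lines their 95% intervals, with the 6 genes at an unadjusted p under 0.05 in black. The estimates run from -0.82 to 0.81, all 8 HOPS, CORVET and VPS33B genes lie left of 0, and no gene passed the adjusted threshold.

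The HOPS and CORVET tethers lay below 0 as a group. These are complexes built on a shared core of VPS11, VPS16, VPS18 and VPS33A. HOPS adds VPS39 and VPS41 and tethers late endosomes to lysosomes, while CORVET adds VPS8 and acts on early endosomes. All 8 genes of the group, VPS33B included, had negative log2 fold changes (median -0.39, range -0.82 to -0.04), but 6 of 8 did without CD63 high replicate 2 and 6 of 8 without CD63 low replicate 2. In 6 of them both CD63 high libraries lay below both CD63 low libraries, as did 22.2% of all tested genes and 25.6% of those of similar expression. None passed the adjusted test, and 3 of the 6 genes at an unadjusted p under 0.05 were here.

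Vps39 (chromosome 2, 120316461 to 120353137, mm10), a HOPS subunit whose yeast counterpart contacts the RAB7 homolog, had 19.05 and 17.1 CPM with high CD63, against 26.7 and 37.1 CPM with low CD63. The log2 fold change was -0.82 (SE 0.24, edgeR p 0.00640, adjusted p 0.116). Vps8 (chromosome 16, 21423118 to 21644680), the CORVET subunit whose yeast counterpart binds the RAB5 homolog, had 33.1 and 31.4 with high CD63 against 45.8 and 61.5 CPM with low CD63, a log2 fold change of -0.74 (SE 0.22, adjusted p 0.118). In both genes every CD63 high library lay below every CD63 low library, and the CD63 low libraries lay further apart than the CD63 high ones. Vps11 (chromosome 9, 44347749 to 44361670), a scaffold of the shared core, had 38.9 and 30.8 with high CD63 against 48.6 and 60.4 CPM with low CD63 (log2 fold change -0.65, SE 0.22, adjusted p 0.177). The ratio of Vps8 to Vps39 counts within a library does not depend on scaling, and it was 1.74 and 1.83 in the CD63 high and 1.72 and 1.66 in the CD63 low libraries.

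The other 5 genes were closer to 0. Vps18 had 19.2 and 18.8 CPM with high CD63 and 19.5 and 31.0 CPM with low CD63, and Vps41, which also has a part in insulin granule formation in beta cell lines, had 36.9 and 36.2 with high CD63 against 39.3 and 54.9 CPM with low CD63. In each of them CD63 low replicate 1 stood near the CD63 high libraries and replicate 2 apart. Vps33a, the Sec1/Munc18 protein of the core, had a log2 fold change of -0.30, Vps33b, its relative in another tether, -0.12, and Vps16, the core subunit that holds VPS33A, -0.04. All 8 genes were at their highest in CD63 low replicate 2. Without that library the median of the group was -0.15, Vps16 and Vps33b were at 0.32 and 0.21, and Vps39, Vps8 and Vps11 were at -0.55, -0.49 and -0.46 (adjusted p 0.463, 0.462 and 0.508). Without CD63 low replicate 1 the median was -0.65, and Vps39 and Vps8 passed the test at -1.04 and -0.94 (adjusted p 0.0176 and 0.0186).

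**Figure D2:**
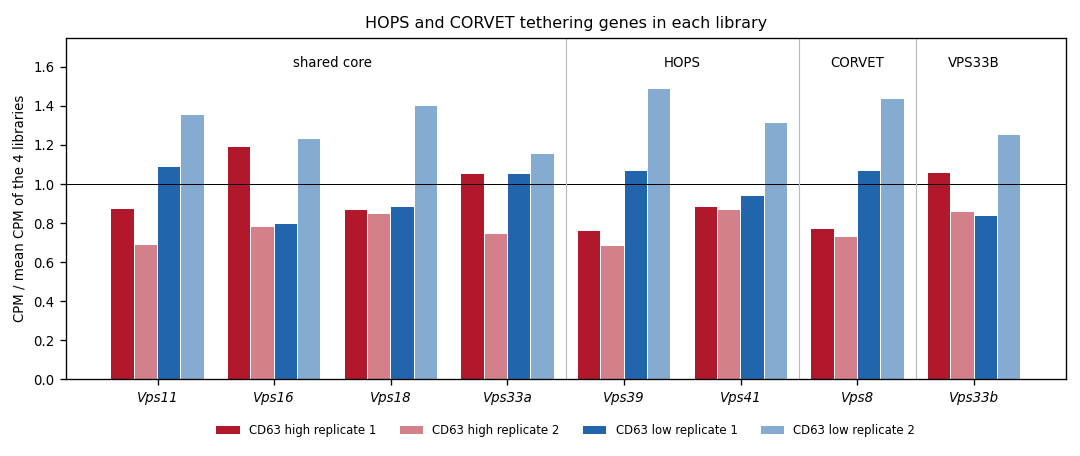
Level of the 8 HOPS, CORVET and VPS33B genes in each library, as CPM divided by the gene's mean over the 4 libraries (bars from 0, line at the mean). CD63 low replicate 2, the light blue bar, is the highest of the 4 for all 8 genes, and in Vps11, Vps39 and Vps8 both CD63 high libraries lie below both CD63 low libraries.

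The exosome adaptors went apart. ALIX, encoded by Pdcd6ip (chromosome 9, 113651744 to 113708259), joins cargo to ESCRT-III, and syntenin, encoded by Sdcbp (chromosome 4, 6365650 to 6408423), joins syndecans and CD63 to ALIX. Sdcbp had 235 and 286 CPM with high CD63, against 175 and 192 CPM with low CD63 (log2 fold change 0.51, SE 0.20, edgeR p 0.0271, adjusted p 0.253). Pdcd6ip had 53.2 and 50.9 CPM with high CD63, against 67.0 and 95.1 CPM with low CD63 (log2 fold change -0.64, SE 0.22, edgeR p 0.0149, adjusted p 0.182). Neither gene passed, and in each the groups did not overlap. Of all tested genes, 23.8% lay higher and 22.2% lower in CD63 high without overlap. Their ratio within each library, Sdcbp over Pdcd6ip counts, was 4.42 and 5.62 in the CD63 high and 2.62 and 2.02 in the CD63 low libraries, whatever the scaling. With 2 libraries against 2, an exact two-sided permutation test of such a ratio cannot go below p = 0.333. Without CD63 low replicate 1 Pdcd6ip passed the test (log2 fold change -0.87, adjusted p 0.0206), and without replicate 2 it was at -0.35.

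**Figure D3:**
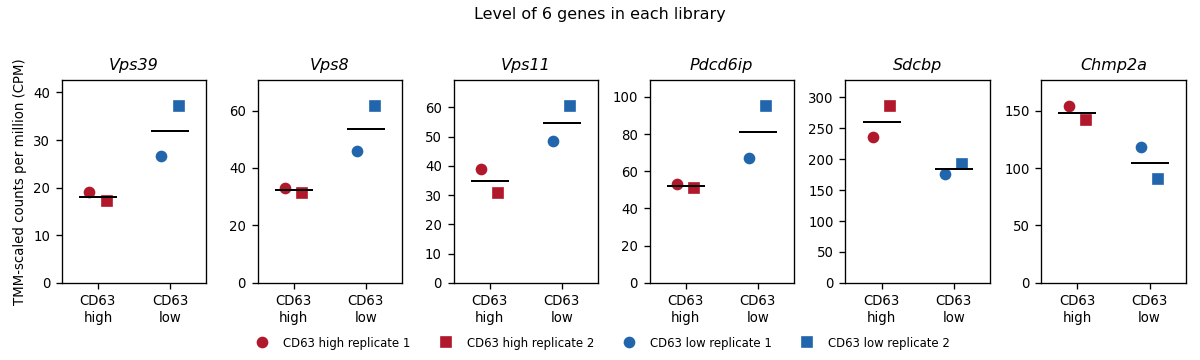
TMM-scaled CPM of the 6 genes with an unadjusted p under 0.05 in each of the 2 CD63 high (red, left) and 2 CD63 low (blue, right) libraries; lines are group means. Vps39, Vps8, Vps11 and Pdcd6ip lie lower and Sdcbp and Chmp2a higher in CD63 high libraries without overlap, with Sdcbp at 235 and 286 with high CD63 against 175 and 192 CPM with low CD63.

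ESCRT-III went both ways, with 6 of its 10 genes above 0 and 4 below (median 0.06; -0.060 without CD63 high replicate 2). Chmp2a (chromosome 7, 13032010 to 13034807), a late filament subunit that recruits VPS4, had 154 and 142 CPM with high CD63, against 119 and 90.9 CPM with low CD63. Its log2 fold change was 0.50 (SE 0.21, edgeR p 0.0344, adjusted p 0.283). Chmp4b, the main filament-forming subunit, had 21.8 and 20.2 with high CD63 against 16.9 and 12.7 CPM with low CD63 (log2 fold change 0.51, SE 0.25, adjusted p 0.381), whereas its paralog Chmp4c, with a part in the abscission checkpoint of dividing cells, stood at -0.34. The Chmp4b to Chmp4c ratio of counts was 2.45 and 1.35 in the CD63 high and 0.938 and 1.03 in the CD63 low libraries. Snx16 overlaps Chmp4c on the opposite strand over 12.5% of its exonic bases, and the counting used no strand. Groups lay apart without overlap also for Chmp2b and Chmp3 (0.20 and 0.10, higher in CD63 high) and for Chmp1a, Chmp1b and Chmp7, the last known for resealing the nuclear envelope (-0.23, -0.19 and -0.34). That made 4 of 10 ESCRT-III genes higher and 3 lower without overlap, beside 23.8% and 22.2% of all tested genes. Chmp5 and Chmp6 were at 0.02 and 0.15. Both ATPases that take the filaments apart, Vps4a and Vps4b, had log2 fold changes of -0.20 with overlapping groups.

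The genes taken by name from the earlier ESCRT complexes lay mostly below 0, and none of them passed. Of all tested genes, 51.4% were below 0. Other subunits, such as Snf8 of ESCRT-II, are in a separate list further below. ESCRT-0, which binds ubiquitin on the cargo, was negative in 3 of 3 genes. Hgs had 35.8 and 33.4 CPM with high CD63 and 32.7 and 57.9 CPM with low CD63, so that its -0.39 rested on CD63 low replicate 2 (0.10 without it). Stam was at -0.54 and Stam2 at -0.37. In ESCRT-I, Vps28 had 140 and 147 with high CD63 against 136 and 107 CPM with low CD63 (0.24), and Vps37a, Vps37b, Vps37c and Vps37d, which are alternative subunits, were at -0.44, -0.47, -0.39 and -0.23. Tsg101, the subunit that reads the ubiquitin and late-domain signals, had 55.9 and 65.4 with high CD63 against 69.5 and 60.9 CPM with low CD63 (-0.10, 95% interval -0.55 to 0.34). In ESCRT-II, Vps36 was at 0.06. Vps25 had 0.893 and 0.903 with high CD63 against 0.692 and 1.10 CPM with low CD63, and 67.2% of its exonic bases are shared in the annotation with Ramp2 on the same strand, where reads are not assigned to either gene. Its level may therefore read too low.

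Retromer, the trimer of VPS26, VPS29 and VPS35 that retrieves cargo from endosomes, had 3 of 4 genes below 0 (median -0.29; -0.14 without CD63 low replicate 2). Vps35, its scaffold, had 142 and 167 CPM with high CD63 and 167 and 215 CPM with low CD63 (log2 fold change -0.31, SE 0.21, adjusted p 0.556). The paralogs Vps26a and Vps26b were at -0.27 and -0.45, in both without overlap of the groups, and Vps29 at 0.25. Of all tested genes, 22.2% lay lower in CD63 high without overlap. The 8 nexins that work with retromer ranged from -0.26 to 0.07. Snx3, the adaptor for Wntless, had 126 and 164 with high CD63 against 151 and 128 CPM with low CD63 (0.05, 95% interval -0.41 to 0.52). The membrane-bending partners Snx1, Snx2, Snx5, Snx6 and Snx32 were at -0.12, -0.26, -0.06, -0.03 and -0.19, Snx12, a close relative of Snx3, at 0.07, and Snx27, which returns receptors to the cell surface, at -0.13.

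Stretches of E-box promoters are shown for Vps16 and Vps33a of the HOPS core, Vps26a of retromer and Pdcd6ip, which encodes ALIX. This palindrome is the core of the element through which transcription factors of the TFEB family act on lysosomal genes. RefSeq promoters (GRCm38.p6, 250 bases before to 50 after the start) were matched by symbol for 53 of the 79 genes. TCACGTGA, which reads the same on both strands, occurred in 4 of these 53 (7.55%) and in 1.12% of all 27025 symbols of that table. Those symbols were not limited to tested genes, for which no share was taken. Vps39, Vps8 and Vps11 were not among the 4, and genes not matched by symbol were not searched. The stretches below lie upstream of the RefSeq start and are written 5′ to 3′ on the gene's strand, with the motif in capitals. They are chr2:130424275-130424319 (plus) for Vps16, chr5:123573016-123573070 (minus) for Vps33a, chr9:113708265-113708324 (minus) for Pdcd6ip and chr10:62486955-62487014 (minus) for Vps26a.
Vps16: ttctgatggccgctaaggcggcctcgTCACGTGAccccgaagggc
Vps33a: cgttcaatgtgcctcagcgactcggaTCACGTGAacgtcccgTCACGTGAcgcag
Pdcd6ip: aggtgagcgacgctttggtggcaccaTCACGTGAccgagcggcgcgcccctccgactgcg
Vps26a: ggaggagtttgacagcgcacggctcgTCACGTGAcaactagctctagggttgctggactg
Vps33a holds the motif at 2 places in its stretch, and a second annotated start of Vps26a holds it as well. The log2 fold changes of these genes were -0.04 (Vps16), -0.30 (Vps33a), -0.64 (Pdcd6ip) and -0.27 (Vps26a), none past the test. A cyclic AMP response motif, TGACGTCA, occurred in 1 of the 53 (Chmp2a, 1.89%) and in 2.03% of all symbols. A match is a description of the letters, and both motifs were chosen with the fold changes known.

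Among the remaining sorting nexins, 4 related large proteins at contacts of the endoplasmic reticulum were all below 0 (median -0.37). The figures label them RGS-domain sorting nexins, a group name that was not checked for each gene. Snx25 was at -0.65 (SE 0.38), Snx13 at -0.40, Snx19, linked to the number of insulin granules in a beta cell line, at -0.34 and Snx14 at -0.30. Snx25 had 8.71 and 4.12 CPM with high CD63 and 8.73 and 11.4 CPM with low CD63. Their median ranged from -0.77 (without CD63 high replicate 1) to -0.19 (without CD63 high replicate 2) when 1 library was left out, and in the last of these Snx19 was at 0.051. The other nexins with a membrane-bending BAR domain had a median of -0.02 (0.087 without CD63 low replicate 2). Snx4, which has roles in recycling and autophagy, had 41.2 and 40.9 with high CD63 against 48.4 and 57.6 CPM with low CD63 (-0.37), and Snx9 and Snx18, both partners of dynamin in endocytosis, were at -0.08 and 0.25. Snx7 and Snx8 were at 0.06 and -0.02 and Snx30 at 0.16. Snx33 (-0.75, SE 0.73) rested on 0.397 CPM in CD63 high replicate 2, the other 3 libraries being at 2.34 to 2.69 CPM.

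The last group of nexins, some with little beyond the lipid-binding PX domain and others not, lay around 0. Its median was 0.05, with 6 of 9 tested above 0. With 1 library left out the median was -0.097 to 0.26. Snx10, which has a part in endosome morphology and bone resorption, had 102 and 125 CPM with high CD63, against 91.3 and 87.6 CPM with low CD63 (0.34, SE 0.20, adjusted p 0.479). Snx17, which recycles integrins and LRP1, had 86.9 and 95.1 with high CD63 against 75.4 and 84.8 CPM with low CD63 (0.18). Snx20, a nexin of blood cells, had the highest log2 fold change of all (0.81, SE 0.77), at 0.638 and 1.77 with high CD63 against 0.725 and 0.642 CPM with low CD63. The difference was in CD63 high replicate 2, which also had the most macrophage transcripts, and the part of those in it was not tested; without that library Snx20 was at -0.10. Snx11, Snx15, Snx16, Snx21, Snx24 and Snx29 ranged from -0.31 to 0.24.

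GARP and EARP tether vesicles at the Golgi and at recycling endosomes, and EARP has been tied to dense-core granule cargo in worms and in an insulin-secreting rat cell line. They had 4 of 5 genes below 0 (median -0.26; -0.058 without CD63 low replicate 2, where Vps50 was at 0.12), among them Vps54, specific to GARP, at -0.47, and Vps50, specific to EARP, at -0.29. Vps52 had 32.3 and 35.6 CPM with high CD63 and 38.6 and 42.7 CPM with low CD63 (-0.26), and Vps53 was at -0.11 (0.21 without CD63 high replicate 2). Vps51 stood at 0.24, with 64.0% of its exonic bases shared with Tm7sf2. The bridge-like lipid transfer proteins Vps13a to Vps13d were split evenly, with Vps13a at -0.20, Vps13b at -0.15 and Vps13d at 0.22. Vps13c, found between late endosomes and the endoplasmic reticulum, had 11.7 and 12.8 with high CD63 against 9.92 and 7.24 CPM with low CD63 (0.51, SE 0.285, adjusted p 0.454). Another 3 genes fit the name rule only: Vps45, a fusion protein of recycling endosomes (0.10), Vps9d1, with a RAB5-activating domain (-0.12), and Vps72, a nuclear histone chaperone (-0.28).

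Levels between genes were compared per length, as TMM-scaled CPM per kilobase of exon (RPKM, mean of the 4 libraries). Chmp2a led with 109 RPKM, followed by Snx3 with 101 and Chmp5 with 84.3 RPKM, and then by Vps28 (57.5), Snx2 (36.3), Sdcbp (32.2) and Snx17 (27.7 RPKM). Within complexes the levels were uneven. In ESCRT-0, Hgs had 13.4 RPKM against 6.69 for Stam2 and 1.53 for Stam. ESCRT-III ran from 1.34 RPKM for Chmp4c to that of Chmp2a. Retromer subunits were closer, with Vps35 at 19.4, Vps29 at 16.4, Vps26a at 11.4 and Vps26b at 4.81 RPKM, and so were the HOPS and CORVET genes, at 2.90 (Vps39) to 9.04 RPKM (Vps11). The VPS13 genes, with the longest transcripts, lay at 0.175 to 0.638 RPKM. Lengths are the union of annotated exons, so genes with long unused exons read too low.

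**Figure D4:**
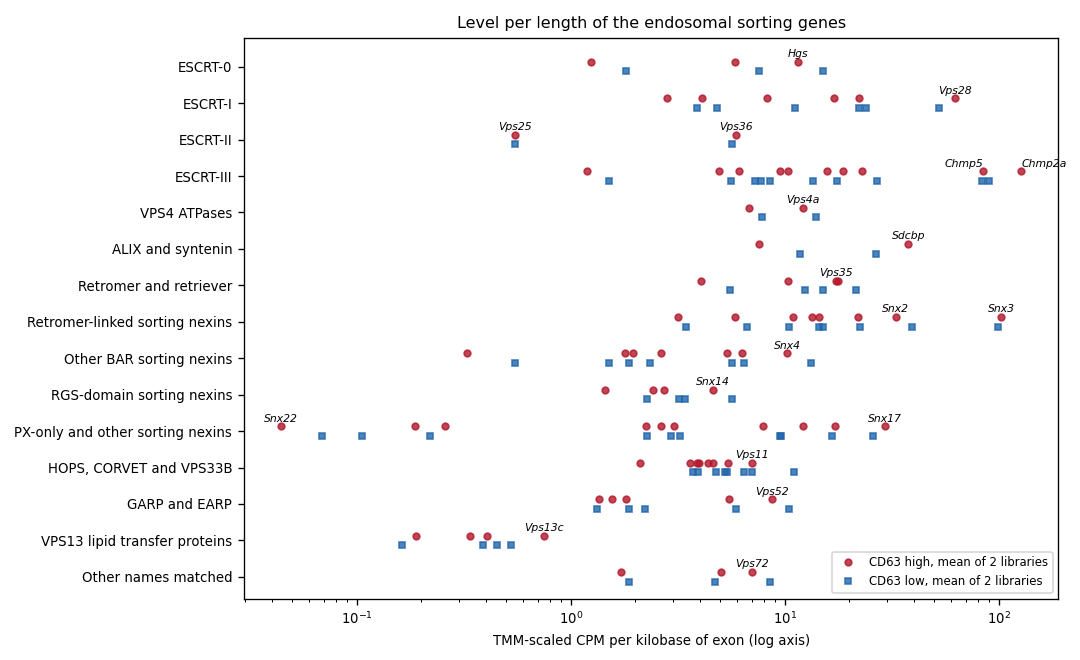
Level per length of the detected genes by role, on a log axis, as group means of 2 CD63 high (circles, upper) and 2 CD63 low (squares, lower) libraries; the highest gene of most groups is named. Chmp2a, Snx3 and Chmp5 lead, HOPS and CORVET genes lie close together, and the 2 groups overlap along the axis.

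Paralog and partner ratios were taken within each library for 10 pairs picked after the values were seen. Of all tested single genes, 23.8% lay higher and 22.2% lower in CD63 high without overlap. No such share was taken over other pairs. Of the 10 pairs, the groups did not overlap in 5. Beside the pairs given above these were Vps26a over Vps26b, at 1.45 and 1.39 in CD63 high against 1.25 and 1.26 in CD63 low libraries, and Vps35 over Vps29, at 1.52 and 1.33 in CD63 high against 1.64 and 2.59 in CD63 low libraries. Vps4a over Vps4b was 0.507 and 0.507 in CD63 high against 0.568 and 0.462 in CD63 low libraries, and Vps37a over Vps37c was 1.2 and 1.35 in the high against 1.39 and 1.26 in the low libraries, with overlapping groups.

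Transcript length moved with the comparison. Across all tested genes, which are not independent replicates, Spearman's rho between exon length and log2 fold change was -0.24, and across the 77 endosomal sorting genes -0.19. Genes under 3000 bases had a median log2 fold change of 0.15 (n = 4270) and those over 6000 bases of -0.13 (n = 3893). For the endosomal sorting genes the medians were -0.06 (n = 22) and -0.30 (n = 28). Vps39, Vps8 and Pdcd6ip are over 6000 bases long and Chmp2a is among the shortest, but Sdcbp, with 6904 bases, stood above 0. The part of length in these values was not tested.

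Beyond the named families, a list of other ESCRT genes (Snf8, Ist1, Usp8 and their like) had 0 of 23 tested genes called. The retromer partners of the WASH and COMMD complexes had 0 of 19, and genes of phosphatidylinositol 3-phosphate, the lipid that marks endosomes, 0 of 15. Their medians were -0.02, 0.02 and -0.12. At an unadjusted edgeR p under 0.05 there were 6, 0 and 1 genes, against 14.9% of all tested genes. That 1 gene, Uvrag, whose product binds the class C core of HOPS, had 16.1 and 13.1 CPM with high CD63, against 21.1 and 34.1 CPM with low CD63 (log2 fold change -0.92, SE 0.28, adjusted p 0.125; 0.0053 without CD63 low replicate 1). Tollip, a ubiquitin-binding adaptor, had 81.5 and 74.9 with high CD63 against 104 and 141 CPM with low CD63 (-0.65, adjusted p 0.157; 0.0228 without CD63 low replicate 1), and Snf8, the ESCRT-II partner of VPS25 and VPS36, 43.8 and 47.0 with high CD63 against 32.6 and 33.4 CPM with low CD63 (0.46, adjusted p 0.317). Also at an unadjusted p under 0.05 in the ESCRT list were Gga2 and Nedd4l (both -0.70), Ptpn23 (0.73) and Mitd1 (0.56). Commd3 had the smallest p of its own list (0.36, adjusted p 0.479).

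Of the exosome release genes, 2 of 25 tested were called higher and 1 lower, beside 2.5% and 0.287% of all tested genes. Anxa2, a calcium-dependent membrane binder, rose to 6.67 and 15.8 CPM with high CD63, against 0.824 and 0.359 CPM with low CD63 (log2 fold change 4.26, SE 0.56, edgeR adjusted p 0.00362). Cd9, a tetraspanin, rose to 19.3 and 23.8 with high CD63 against 9.98 and 6.88 CPM with low CD63 (1.35, SE 0.28, adjusted p 0.0281). Sytl4, granuphilin, which docks insulin granules and binds RAB27, fell to 93.4 and 98.2 CPM with high CD63, against 179 and 230 CPM with low CD63 (-1.09, SE 0.20, adjusted p 0.0178). Among 12 tested sorting receptors and cargoes only Lrp1, an endocytic receptor, was called, at 2.90 and 5.13 with high CD63 against 0.758 and 0.257 CPM with low CD63 (3.0, SE 0.65, adjusted p 0.0365). Anxa2 and Lrp1 are expressed widely outside beta cells, and macrophage, duct and acinar transcripts were higher in the same libraries. The part of those cells in the values of Anxa2, Lrp1 and Cd9 was not tested. The calls of Cd9 and Lrp1 ended without CD63 high replicate 2 (adjusted p 0.0621 and 0.115), those of Cd9, Lrp1 and Sytl4 with library size as the only scaling (0.0964, 0.102 and 0.110), and that of Lrp1 with limma-voom (0.0546).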

How the data were processed

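Each of the 4 libraries came with 1 table of raw counts per gene name. The authors made these counts with featureCounts 1.6.2, counting paired fragments by gene name with the annotation of a Cell Ranger mm10 3.0.0 reference and no strand or multi-mapping option, per the file headers. STAR 2.6.0c, FastQC and mm10 are named per the submitters' processing notes. Libraries were made with a SMARTer v4 low-input and a Nextera XT kit, per the labels' protocols, which name no molecular identifiers, so limits from counts cover counting error only. Under these settings reads that match several genes are left out: 10 members have over 5% of exonic bases in another gene (Vps25, Vps51, Vps37b, Snx22 and Snx11 most), and 17 share over 5% of their 50-base words with another transcript of GENCODE M21, such as Chmp1b (22.5%) and Tsg101 (18.3%), whose levels may read too low.

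Groups came from the sample titles. Replicates within CD63 high and within CD63 low differed by 39.8 and 78.6 chi-square units per degree of freedom, so no library appears to be a copy of the other in its group. Libraries of different groups were not compared in this way. The filterByExpr function of edgeR (version 4.0.16, run under R 4.3.3) chose the genes to test, with a minimum count of 10 and total of 15. They were scaled by TMM (factors 0.921 to 1.11), and the groups were compared by glmQLFit and glmQLFTest, with Benjamini-Hochberg adjustment over all 13241 genes. The standard error is the estimate divided by the root of its F statistic. The test was checked on simulated data. DESeq2 1.42.0, limma 3.58.1 and 11 other settings were alternatives. Named genes were all members at an unadjusted p under 0.05 and, by role, the one with the largest change and the highest level; other members were named after their values were seen. The members and lists were chosen with earlier results of these data known.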

Additional observations from a re-analysis of the deposited data

How the results depend on the processing

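Of 77 tested genes, 46 kept their direction in all 13 alternatives and 3 (Vps8, Vps39 and Pdcd6ip) were called in at least 1. None was called higher in any. The number called lower was 0 in the main test, 1 with DESeq2 (Vps8, adjusted p 0.0500), 2 without a filter on low counts (Vps39 and Vps8) and 0 to 3 when 1 library was left out. All genes called numbered 369, against 67 with library size as the only scaling, 686 with DESeq2, 940 without a filter and 450 to 769 with 1 library left out. The median log2 fold change of -0.15 was -0.19 with library size only, -0.24 with library size without Ins1 and Ins2, -0.17 without and with a stricter filter (at least 1 CPM in 2 libraries), and -0.14 to -0.060 with 1 library left out. Scaling without Ins1 and Ins2 moved the median of all genes to -0.11, so the distance of the 2 medians was -0.13 there as in the main test. In that scaling 5 genes lay higher in CD63 high without overlap, against 12. With 1 library left out 19 to 23 lay higher and 34 to 40 lower, where fewer values make overlap rarer by construction. The share of all tested genes without overlap was not taken in these settings. Of the 77 genes, 31 took the other direction in at least 1 alternative. With library size without Ins1 and Ins2, Vps36 was at -0.033 and Snx3 at -0.043. With 1 library left out, Vps36 ranged from -0.11 to 0.22 (-0.11 without CD63 high replicate 2, -0.06 without CD63 low replicate 2) and Snx3 from -0.15 to 0.23 (-0.15 and -0.04 without the same libraries). Without CD63 high replicate 2, Snx33 was at 0.036 and Snx20 at -0.10, against -2.65 and 1.37 without CD63 high replicate 1. Hgs ranged from -0.75 to 0.10, the last without CD63 low replicate 2. The cause was not tested.

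Replicate numbers are shared between the groups, and deviations of same-numbered libraries from their group means correlated at -0.15 over genes. Nothing in the labels ties a number to a mouse or sort. The deposited tables number the CD63 low libraries 2 and 3, so that under those numbers CD63 high replicate 2 and CD63 low replicate 1 share one. The crossed pairing took that pair and also set CD63 high replicate 1 with CD63 low replicate 2, a pair that those numbers do not give. With the replicate block 616 genes were called, 0 of them members; the block with crossed numbers, added after seeing the data, called 942 genes and 4 members, all lower (Pdcd6ip, Vps11, Vps39 and Vps8). Depth limits Snx20, Snx29 and Vps25, at 0.638 to 1.81 CPM in every library.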
